A study of Sus scrofa with 8 samples.

Results

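The 8 genes described here take up, carry or export iron and cobalamin (vitamin B12) in the body: CUBN, AMN, TCN2, CYBRD1, SLC11A2, HEPH, SLC40A1 and TFRC. They were chosen by symbol, and each symbol matched 1 pig Ensembl gene among the 31907 genes of the deposited count files. The 8 RNA-seq libraries came from Guizhou minipigs aged 8 months. By its title the study concerned the ileal neobladder, a bladder substitute made of bowel, and the animal's own peritoneum as a substitute for its mucosa. There were 2 libraries in each of 4 groups. MN-Exp was mucosa of the experimental neobladder, MN-Ctrl was mucosa of the control neobladder, NP was normal peritoneum and MNB was mucosa of the normal bladder. All groups shared strain and age, and the labels give no drug or allele, no time after surgery and no account of how the control reservoir was lined. Nor do they tie the replicates to different animals, so every p-value measures only the spread between these samples, which may be technical.

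Cobalamin from food is bound by intrinsic factor, and the complex is taken up in the ileum by cubam, a receptor made of cubilin (CUBN), which binds the ligand, and amnionless (AMN), which anchors it in the apical membrane. Transcobalamin (TCN2) then carries cobalamin in the blood to other tissues. Dietary iron is absorbed mainly in the duodenum: a ferric reductase (CYBRD1) and the divalent metal transporter DMT1 (SLC11A2) bring it into the enterocyte, and ferroportin (SLC40A1), with the ferroxidase hephaestin (HEPH), passes it to the blood. The transferrin receptor (TFRC) takes up iron bound to transferrin and is abundant in dividing cells.

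In the RefSeq annotation of the Sscrofa11.1 assembly, matched by symbol, CUBN lies on chromosome 10 from 43102931 to 43414692 and TCN2 on chromosome 14 from 47496245 to 47515966. CYBRD1 and SLC40A1 are both on chromosome 15, from 77649124 to 77695141 and from 94140635 to 94161793. TFRC lies on chromosome 13 from 133976765 to 133997554 and HEPH on chromosome X from 52314911 to 52397384. AMN (ENSSSCG00000002524) and SLC11A2 (ENSSSCG00000034039) have no chromosome in that table.

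The libraries held 7939291 to 11884868 counts, and levels are given in CPM, the count of a gene relative to the library total, with totals adjusted between libraries by trimmed mean of M-values (TMM). On this scale 3 counts in a library equal 0.224 to 0.561 CPM, which covers counting error only. MN-Ctrl replicate 2 stood apart: its scaling factor was 0.45, against 0.839 to 1.238 in the other 7 libraries, and its 10 most abundant genes took 22.9% of its counts. All 8 members were lower in MN-Ctrl replicate 2 than in MN-Ctrl replicate 1, where 51.8% of all tested genes were. The gap was 4.41-fold for HEPH, 4.25-fold for CUBN, 4.17-fold for TFRC and 3.003-fold for TCN2, and 1.203-fold for SLC40A1. Over 11655 genes, the log2 difference of replicate 2 minus replicate 1 had a Spearman correlation of -0.319 with gene span. CUBN and HEPH have the longest spans among the members (311762 and 82474 bases). TFRC and SLC40A1, with unlike gaps, span 20790 and 21159 bases. The cause of the gap was not tested. The labelled tissues could be checked against marker genes. The summed level of 13 enterocyte markers was 86.6 to 164 CPM in MN-Exp, 48014 to 163020.0 CPM in MN-Ctrl, 113 to 157 CPM in NP and 108 to 125 CPM in MNB. Most of the MN-Ctrl sum was FABP6 (31307 CPM in replicate 1 and 157310 CPM in replicate 2). FABP2 was also higher in MN-Ctrl replicate 2. The other enterocyte markers were lower there, such as ANPEP (5541 and 1028 CPM) and VIL1 (2428 and 829 CPM). The summed level of 9 urothelium markers was 4606 to 8793 CPM in MN-Exp, 80.6 to 181.5 CPM in MN-Ctrl, 556 to 1001 CPM in NP and 9144 to 10134 CPM in MNB. The 5 mesothelium markers summed to 46.4 to 54.4 CPM in MN-Exp, 0.936 to 1.09 CPM in MN-Ctrl, 161 to 173 CPM in NP and 39.3 to 41.6 CPM in MNB. Most of the MN-Exp sum was ALDH1A2 (49.9 and 41.3 CPM). HAS1 had a mean of 4.70 CPM in MN-Exp and 3.19 CPM in NP. WT1 and BNC1 held 1 count each over the MN-Exp libraries, against 556 and 82 counts over the NP libraries. At 0 in both libraries of a group were FABP2 in MNB, UPK1A in NP, CALB2 in all 4 groups including peritoneum, BNC1 in MN-Ctrl and WT1 in MNB.

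All 8 members passed the filter on low counts. CUBN, AMN and HEPH were called higher in MN-Ctrl than in each other group, SLC40A1 was called higher in NP than in each other group, and no member passed the test between MN-Exp and MNB. A gene is said to have changed where the adjusted p of edgeR's quasi-likelihood test, over all 16549 tested genes, was under 0.05. In MN-Exp against MN-Ctrl, 4 of 8 members fell and 0 rose, where 21.7% of all tested genes were called, 10.4% higher and 11.3% lower. The members' median log2 fold change was -1.53, beside 0.11 over all tested genes. In MN-Exp against NP, 2 members rose and 2 fell (background 24.2%, 12.4% higher and 11.8% lower, median -0.07 beside -0.01). In MN-Ctrl against NP, 4 rose and 2 fell (background 42.3%, 21.6% higher and 20.6% lower, median 1.86 beside -0.06), and in MN-Ctrl against MNB, 3 rose and 1 fell (background 22.3%, 11.2% higher and 11.1% lower, median 1.04 beside -0.11). In NP against MNB, 1 rose and 4 fell (background 21.1%, 9.93% higher and 11.1% lower, median -0.56 beside 0.01). In MN-Exp against MNB, 0 of 8 members were called by edgeR or by DESeq2 (background 0.0967%, 0.0423% higher and 0.0544% lower; 1326 genes had an unadjusted p under 0.05), and 1, AMN, had an unadjusted p under 0.05. These comparisons share libraries and are not independent of each other. Without scaling between libraries, 77% of the genes called between MN-Exp and MN-Ctrl were higher in MN-Exp, against 48% with it, and the all-gene median moved to 0.89.

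**Figure D1:**
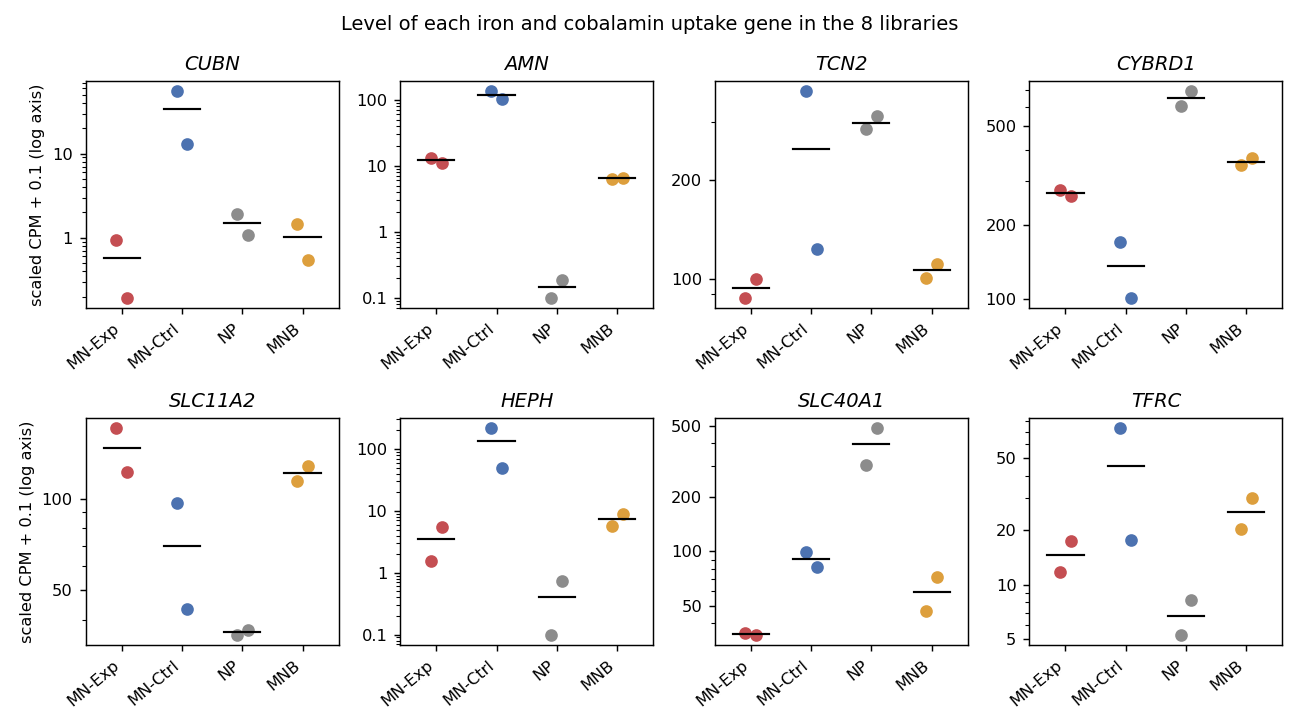
Scaled CPM plus 0.1 on a log axis for each member, 1 panel a gene. Points are the 2 libraries of MN-Exp, MN-Ctrl, NP and MNB, and bars are group means. CUBN, AMN and HEPH stood highest in MN-Ctrl, while CYBRD1 and SLC40A1 stood highest in NP.

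Both chains of the ileal cobalamin receptor were lower in MN-Exp than in MN-Ctrl. CUBN had 0.846 and 0.0926 CPM in MN-Exp, 54.9 and 12.9 CPM in MN-Ctrl, 1.83 and 0.979 CPM in NP and 1.37 and 0.448 CPM in MNB. The MN-Ctrl libraries lay far above the other 6. MN-Exp lay below NP, and MNB overlapped both. CUBN fell in MN-Exp against MN-Ctrl with a log2 fold change of -6.12 ± 1.01 (SE, adjusted p = 0.00213). It rose in MN-Ctrl against NP (4.60 ± 0.91, adjusted p = 0.00295) and against MNB (5.22 ± 0.94, adjusted p = 0.00348). Between the other 3 groups no difference passed, and the 95% interval of MN-Exp against MNB, from -3.17 to 1.38, was wide; the MN-Exp libraries held 11 counts in all and the MNB libraries 23. The size of the change rested on single libraries. Libraries were left out of the 2 groups compared, unless another group is named. Without any 1 of the 4, the log2 fold change of MN-Exp over MN-Ctrl was -8.33 to -4.70. That of MN-Ctrl over MNB was 3.80 to 6.20, and that of MN-Ctrl over NP 3.20 to 5.31, and each of these values stayed called.

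AMN was measurable in MN-Exp and MNB as well. It had 12.95 and 10.9 CPM in MN-Exp, 133 and 101 CPM in MN-Ctrl, 0 and 0.0890 CPM in NP and 6.29 and 6.49 CPM in MNB. The 4 groups did not overlap, in the order MN-Ctrl, MN-Exp, MNB and NP. For 1 pair of groups at a time, 48.5% to 71.3% of all tested genes did not overlap. The share with all 4 groups apart at once was not computed, for AMN or for the genes below. AMN fell in MN-Exp against MN-Ctrl with a log2 fold change of -3.30 ± 0.40 (adjusted p = 0.000359) and rose in MN-Ctrl against MNB (4.20 ± 0.42, adjusted p = 0.000112). Both mucosae with urothelial markers held AMN transcripts and peritoneum held 1 count over its 2 libraries. AMN in MN-Exp was 252.5 times its level in NP, with a counting interval of 44.9 to 10008 (95%, exact), and it rose in that comparison with adjusted p = 5.41e-05. AMN in MN-Ctrl was 2560.3 times its level in NP (459 to 101180, adjusted p = 1.68e-05), and AMN fell in NP against MNB (adjusted p = 0.000139). The fitted log2 fold change of MN-Exp over NP, 7.66, depends on a prior count and was 9.95 without NP replicate 2 or 6.91 without NP replicate 1, since that single count lay in replicate 2; that of MN-Ctrl over NP was 10.19 to 13.27 and that of NP over MNB -9.07 to -6.01 without any 1 library, and all stayed called. MN-Exp stood at 11.94 ± 1.43 CPM and MNB at 6.39 ± 0.141 CPM (SD, n = 2 each), which did not pass (log2 fold change 0.90, 95% interval 0.05 to 1.75, adjusted p = 0.572).

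All 13 tested enterocyte markers fell in MN-Exp against MN-Ctrl, and 13 of 13 rose in MN-Ctrl against NP and against MNB. They moved with CUBN and AMN in these comparisons, and their part in the result was not tested. Of these markers, FABP2, APOA4, APOB, SI, MEP1B and SLC10A2 passed the filter on low counts through the MN-Ctrl libraries alone. Their calls against MN-Ctrl were thus largely fixed in advance. In bulk tissue, fewer cells of a type and less RNA per cell cannot be told apart. Between MN-Exp and NP, where AMN differed, the enterocyte sums overlapped, and 2 of 13 markers rose and 0 fell. The 6 goblet cell markers summed to 666 to 2046 CPM in MN-Exp, 21113 to 35446 CPM in MN-Ctrl, 12.6 to 17.6 CPM in NP and 1149.7 to 1182 CPM in MNB. In MN-Exp 2 of 6 were higher than in NP and 6 of 6 lower than in MN-Ctrl, in MN-Ctrl 6 of 6 were higher than in NP and than in MNB, and in NP 3 of 6 were lower than in MNB. Of 9 urothelium markers, 8 rose in MN-Exp against NP and 9 rose in MN-Exp against MN-Ctrl. The part of these lists in the AMN results was not tested.

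TCN2, the plasma carrier, had 87.4 and 100.01 CPM in MN-Exp, 371 and 123 CPM in MN-Ctrl, 284 and 312 CPM in NP and 101 and 111 CPM in MNB. The MN-Ctrl libraries lay on both sides of the NP libraries, and MN-Exp and MNB were close together. TCN2 fell in MN-Exp against NP with a log2 fold change of -1.67 ± 0.50 (adjusted p = 0.0348), a call lost without any 1 of the 4 libraries (adjusted p = 0.109 to 0.206) and on library totals alone (adjusted p = 0.0909). No other comparison of TCN2 passed edgeR's test as fitted, while DESeq2 called 3 more. MN-Exp against MN-Ctrl gave -1.40 (95% interval -2.50 to -0.30, adjusted p = 0.0701). DESeq2 called it (adjusted p = 0.0118), as did edgeR with no low-count filter (adjusted p = 0.0204), and it was -1.98 with adjusted p = 0.000101 without MN-Ctrl replicate 2 or -0.37 without MN-Ctrl replicate 1. MN-Ctrl against NP gave -0.27 (adjusted p = 0.678). It was 0.34 without MN-Ctrl replicate 2, and without MN-Ctrl replicate 1 it was -1.27 and passed (adjusted p = 0.00169). MN-Ctrl against MNB gave 1.22 (adjusted p = 0.101, and adjusted p = 0.0266 by DESeq2), and 1.81 with adjusted p = 0.000195 without MN-Ctrl replicate 2 or 0.20 without MN-Ctrl replicate 1. NP against MNB gave 1.49 (95% interval 0.39 to 2.60, adjusted p = 0.0573), and DESeq2 called it with adjusted p = 0.00956.

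Of 17 other cobalamin genes, all tested, 1 rose and 5 fell in MN-Exp against MN-Ctrl, with a median log2 fold change of -0.87. These calls made up 35.3% of the list, beside 21.7% of all tested genes. They include CBLIF, which passed the filter through a single group. CBLIF, the intrinsic factor that the human stomach secretes, had 0.339 and 0.370 CPM in MN-Exp, 27.3 and 17.0 CPM in MN-Ctrl, 0 in both NP libraries and 0.565 and 0.0746 CPM in MNB. It was high in MN-Ctrl alone. CBLIF passed the filter on low counts through the MN-Ctrl libraries alone, so no test is given for it. In MN-Ctrl it was at least 156-fold higher than in NP, taking 3 counts over the NP group as the floor. TCN1, haptocorrin, a cobalamin binder of secretions and the most abundant gene of this list, had 779 and 115 CPM in MN-Exp, 927 and 711 CPM in MN-Ctrl, 1.12 and 1.25 CPM in NP and 391 and 609 CPM in MNB. It was thus high in the 3 mucosae and near 1 CPM in peritoneum, with a log2 fold change of 8.55 in MN-Exp over NP (adjusted p = 0.000278) that was 6.63 without MN-Exp replicate 1 and 9.38 without MN-Exp replicate 2.

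Of the genes that act on cobalamin inside the cell, MTR rose and MMAB and ABCD4 fell in MN-Exp against MN-Ctrl. LMBRD1, MMACHC, MMADHC, MMAA, MMUT and MTRR were not called. MTR, methionine synthase, a cobalamin-dependent enzyme of the cytosol, had 14.2 and 16.2 CPM in MN-Exp, 3.26 and 2.81 CPM in MN-Ctrl, 92.0 and 59.4 CPM in NP and 11.8 and 16.6 CPM in MNB. Its groups did not overlap except for MN-Exp and MNB. For 1 pair of groups at a time, 48.5% to 71.3% of all tested genes did not overlap. MTR rose in MN-Exp against MN-Ctrl (2.31, adjusted p = 0.00331), fell in MN-Exp against NP (-2.31, adjusted p = 0.00187) and rose in NP against MNB (2.41, adjusted p = 0.0018), and each of these calls held without any 1 library. MMAB, which makes adenosylcobalamin in the mitochondrion, stood at 4.15 ± 0.237 CPM in MN-Exp and 39.5 ± 35.4 CPM in MN-Ctrl (SD, n = 2 each) and fell (-3.24, adjusted p = 0.00567). MCEE, methylmalonyl-CoA epimerase, which acts beside the mutase and uses no cobalamin, fell (-1.84, adjusted p = 0.0221), as did ABCD4, a lysosomal cobalamin transporter (-1.61, adjusted p = 0.0112). The call of MMAB was lost without MN-Exp replicate 2 (adjusted p = 0.0572), that of ABCD4 without either MN-Exp library (up to 0.102) and that of MCEE without either MN-Exp library or MN-Ctrl replicate 2 (up to 0.149). MMAB was -1.79 without MN-Ctrl replicate 2 and -3.93 without MN-Ctrl replicate 1, and MCEE was -0.92 without MN-Ctrl replicate 2. On library totals alone MCEE (adjusted p = 0.194) and ABCD4 (adjusted p = 0.226) were not called.

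In MN-Ctrl against NP 9 of the 17 rose and 3 fell, and in MN-Ctrl against MNB 4 rose and 1 fell. In MN-Exp against NP and in NP against MNB 2 rose and 2 fell. In the order of these 4 comparisons, 70.6%, 29.4%, 23.5% and 23.5% of the list were called. These shares include CBLIF in both comparisons of MN-Ctrl and LRP2 in the comparisons with NP, although each passed the filter through a single group. The shares of all tested genes were 42.3%, 22.3%, 24.2% and 21.1%. LRP2, megalin, an endocytic receptor for transcobalamin in the kidney, had 0.846 and 0.278 CPM in MN-Exp, 0.652 and 0.187 CPM in MN-Ctrl, 5.80 and 12.1 CPM in NP and 0.242 and 0.522 CPM in MNB. NP lay above all other libraries. The log2 fold change of LRP2 was -3.95 in MN-Exp over NP (-4.92 to -3.30 without any 1 library). In NP over MNB it was 4.50 (3.83 to 5.12 without any 1 library). LRP2 passed the filter on low counts through the NP libraries alone, so no test is given for it. MMUT, methylmalonyl-CoA mutase, the other cobalamin-dependent enzyme, stood at 79.8 ± 25.4 CPM in MN-Exp and 22.5 ± 7.61 CPM in NP (SD, n = 2 each) and rose (1.83, adjusted p = 0.0167, lost without MN-Exp replicate 1 or NP replicate 1, up to adjusted p = 0.134). MTRR, which keeps methionine synthase active, fell in MN-Ctrl against NP (-1.16, adjusted p = 0.0344, lost without MN-Ctrl replicate 2 or either NP library, up to adjusted p = 0.17). In MN-Exp against MNB 0 of 17 were called by edgeR or DESeq2, and 0 had an unadjusted p under 0.05.

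**Figure D2:**
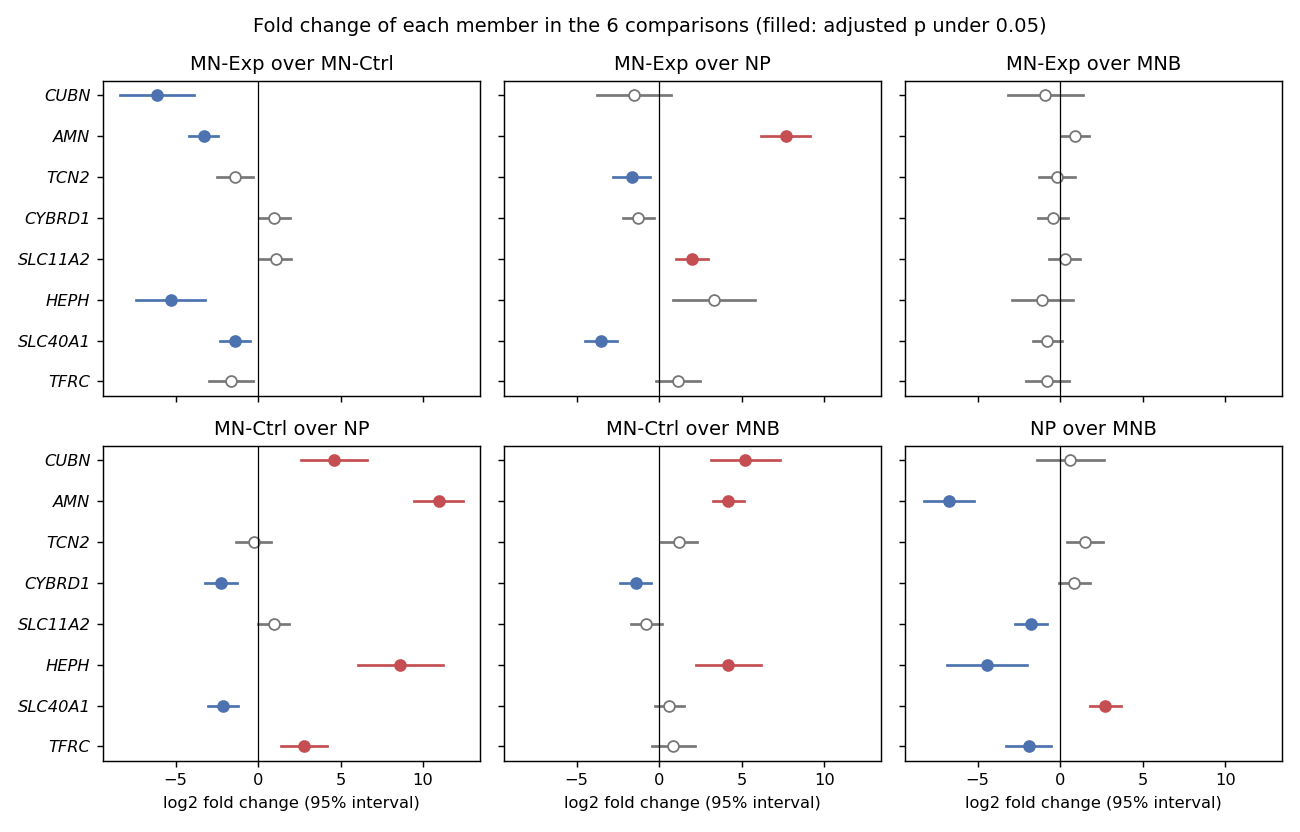
Log2 fold change of each member in the 6 comparisons, with its 95% interval, 1 panel a comparison. Filled red points rose, filled blue points fell and open grey points did not pass (edgeR, adjusted p under 0.05). In the panel of MN-Exp over MNB, no point is filled.

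The iron import genes of the apical membrane, CYBRD1 and SLC11A2, were not called by edgeR between MN-Exp and MN-Ctrl, where both had positive fold changes. CYBRD1 had 276 and 261 CPM in MN-Exp, 170.3 and 101 CPM in MN-Ctrl, 606 and 693 CPM in NP and 349 and 372 CPM in MNB. The order NP, MNB, MN-Exp and MN-Ctrl had no overlap between groups, and MN-Ctrl was the lowest. For 1 pair of groups at a time, 48.5% to 71.3% of all tested genes did not overlap. CYBRD1 fell in MN-Ctrl against NP with a log2 fold change of -2.26 ± 0.44 (adjusted p = 0.00255) and in MN-Ctrl against MNB (-1.41 ± 0.43, adjusted p = 0.038). The call against MNB was lost without MNB replicate 1 (adjusted p = 0.178) or MNB replicate 2 (adjusted p = 0.183), and with DESeq2's size factors (adjusted p = 0.0512) or the 2 groups alone (adjusted p = 0.146). No neighbours in that order passed the test: NP against MNB gave 0.85 (adjusted p = 0.176), MN-Exp against MNB -0.42 (adjusted p = 0.934) and MN-Exp against MN-Ctrl 0.98 (95% interval 0.05 to 1.92, adjusted p = 0.121). DESeq2 called the first (adjusted p = 0.0435) and the last (adjusted p = 0.0486), the 2 groups alone called the first (adjusted p = 0.0108), and library totals alone called the last (1.67, adjusted p = 0.0492). The last was 1.43 with adjusted p = 0.00102 without MN-Ctrl replicate 1. MN-Exp against NP gave -1.27 (95% interval -2.21 to -0.34, adjusted p = 0.051), and it was called by DESeq2 (adjusted p = 0.00159), with the 2 groups alone (adjusted p = 0.00137) and with DESeq2's size factors (adjusted p = 0.0462). The 7 fibroblast markers summed to 3880.1 to 3887 CPM in MN-Exp, 1121 to 2567 CPM in MN-Ctrl, 51126 to 69113 CPM in NP and 13428 to 15068 CPM in MNB, the same order of groups as CYBRD1. In MN-Ctrl 6 of 7 were lower than in NP and 5 of 7 lower than in MNB, and their part in the CYBRD1 results was not tested.

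SLC11A2 had 170.4 and 122 CPM in MN-Exp, 96.5 and 43.4 CPM in MN-Ctrl, 35.6 and 36.8 CPM in NP and 114 and 128 CPM in MNB. It stood highest in the mucosae with urothelial markers, which overlapped, and lowest in peritoneum. SLC11A2 rose in MN-Exp against NP with a log2 fold change of 2.01 ± 0.44 (adjusted p = 0.00818), and it fell in NP against MNB (-1.74 ± 0.43, adjusted p = 0.0178). The first call was lost without MN-Exp replicate 1, NP replicate 1 or NP replicate 2 (adjusted p = 0.0608 to 0.0685) and on library totals alone (adjusted p = 0.0594), and the second without any 1 library (adjusted p = 0.0772 to 0.113). MN-Exp against MN-Ctrl gave 1.06 (95% interval 0.11 to 2.01, adjusted p = 0.102), and without MN-Ctrl replicate 1 it was 1.78 with adjusted p = 0.000729. MN-Ctrl against MNB gave -0.79 (adjusted p = 0.201), and -1.50 with adjusted p = 0.00199 without MN-Ctrl replicate 1. MN-Ctrl against NP gave 0.95 (adjusted p = 0.0962, and adjusted p = 0.0454 by DESeq2), which passed without MN-Ctrl replicate 2 (1.43, adjusted p = 0.00127) and was 0.26 without MN-Ctrl replicate 1. Of 9 urothelium markers, 8 were higher in MN-Exp than in NP and 8 lower in NP than in MNB, the comparisons in which SLC11A2 was called. All 9 also rose in MN-Exp against MN-Ctrl and fell in MN-Ctrl against MNB, where SLC11A2 was not called. In MN-Ctrl against NP 1 marker rose and 3 fell, while SLC11A2 had a positive fold change. The part of these markers in the SLC11A2 results was not tested.

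Of the export pair, HEPH stood highest in MN-Ctrl and SLC40A1 in NP. HEPH had 1.44 and 5.46 CPM in MN-Exp, 218 and 49.4 CPM in MN-Ctrl, 0 and 0.623 CPM in NP and 5.57 and 8.95 CPM in MNB. MN-Ctrl lay far above the rest and no group overlapped another. For 1 pair of groups at a time, 48.5% to 71.3% of all tested genes did not overlap. HEPH fell in MN-Exp against MN-Ctrl with a log2 fold change of -5.28 ± 0.94 (adjusted p = 0.00333), and it rose in MN-Ctrl against NP (8.63 ± 1.17, adjusted p = 0.000331) and against MNB (4.20 ± 0.89, adjusted p = 0.00798). It fell in NP against MNB (-4.43 ± 1.09, adjusted p = 0.0171), where the NP libraries held 7 counts. Without any 1 of the 4 libraries the log2 fold change of MN-Exp over MN-Ctrl was -6.52 to -3.82 and stayed called, that of MN-Ctrl over NP was 7.19 to 13.49 and stayed called, and that of MN-Ctrl over MNB was 2.74 to 4.90 and was lost without MNB replicate 1 (adjusted p = 0.077). NP over MNB was -9.25 to -3.54 and was lost without MNB replicate 2 (adjusted p = 0.0576) or NP replicate 1 (adjusted p = 0.0852). MN-Exp over NP, at 3.35, missed the threshold (adjusted p = 0.0524) and passed without MN-Exp replicate 1 (4.05, adjusted p = 0.0401) or NP replicate 2 (8.16, adjusted p = 0.045), and by DESeq2 (adjusted p = 0.00374); it was 2.13 without MN-Exp replicate 2 and 2.47 without NP replicate 1. The 13 enterocyte markers moved with HEPH in the comparisons with MN-Ctrl, with the limit given above for CUBN.

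SLC40A1, the exporter itself, had 35.0 and 34.4 CPM in MN-Exp, 98.8 and 82.1 CPM in MN-Ctrl, 304 and 486 CPM in NP and 46.6 and 72.2 CPM in MNB. Peritoneum was the highest and MN-Exp the lowest, with no overlap between groups. For 1 pair of groups at a time, 48.5% to 71.3% of all tested genes did not overlap. SLC40A1 fell in MN-Exp against NP with a log2 fold change of -3.51 ± 0.44 (adjusted p = 0.00036) and in MN-Ctrl against NP (-2.13 ± 0.41, adjusted p = 0.00264), and it rose in NP against MNB (2.73 ± 0.42, adjusted p = 0.00146). These 3 calls held without any 1 library. SLC40A1 also fell in MN-Exp against MN-Ctrl (-1.38 ± 0.41, adjusted p = 0.0345), a call lost without MN-Exp replicate 1 (adjusted p = 0.191) or replicate 2 (adjusted p = 0.227) and on library totals alone (-0.63, adjusted p = 0.363) or with the 2 groups alone (adjusted p = 0.0711). MN-Ctrl against MNB, at 0.61 (adjusted p = 0.293), turned to -0.24 on library totals alone, and MN-Exp against MNB gave -0.78 (95% interval -1.67 to 0.11).

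Ferroportin is abundant in macrophages, so macrophage markers were read beside it. Their sum over 12 genes was 1709.8 to 1785 CPM in MN-Exp, 4219 to 9374.5 CPM in MN-Ctrl, 1279 to 1738 CPM in NP and 1802 to 2143 CPM in MNB, with no marker at 0 in both libraries of a group. Most of each sum was C1QA, C1QB and C1QC. These genes, CD68, TYROBP, AIF1 and MSR1 had their highest mean in MN-Ctrl, and MARCO in MNB. CD163 and VSIG4 had theirs in NP (64.4 and 87.3 CPM), as did CSF1R and MRC1. In NP against MNB 2 of 11 tested markers rose and 0 fell, although the summed level was lower in NP. In MN-Exp against NP 0 rose and 3 fell, and in MN-Ctrl against NP 6 rose and 2 fell. Endothelium markers, 7 genes, summed to 563 to 657 CPM in MN-Exp, 220.4 to 249 CPM in MN-Ctrl, 2175 to 2913 CPM in NP and 479 to 645 CPM in MNB. All 7 fell in MN-Exp and in MN-Ctrl against NP, and 6 of 7 rose in NP against MNB. Of the 7 fibroblast markers, 6 fell in MN-Exp and in MN-Ctrl against NP and 2 rose in NP against MNB. In MN-Exp against MN-Ctrl 5 of 11 macrophage markers fell and 1 rose. The part of these markers in the SLC40A1 results was not tested.

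TFRC had 11.7 and 17.4 CPM in MN-Exp, 73.3 and 17.6 CPM in MN-Ctrl, 5.19 and 8.10 CPM in NP and 20.3 and 30.1 CPM in MNB. The 2 control libraries lay on both sides of the MNB libraries, and peritoneum was the lowest. TFRC rose in MN-Ctrl against NP with a log2 fold change of 2.78 ± 0.63 (adjusted p = 0.00594), which was 1.40 without MN-Ctrl replicate 1 and 3.48 without MN-Ctrl replicate 2, both called. On library totals alone this call was lost (2.09, adjusted p = 0.0593). TFRC fell in NP against MNB (-1.92 ± 0.61, adjusted p = 0.0481), a call lost without any 1 library (adjusted p = 0.0974 to 0.21).

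In MN-Exp against MN-Ctrl TFRC gave -1.65 (95% interval -2.98 to -0.33, adjusted p = 0.0744). DESeq2 called it (adjusted p = 0.0266), and the value was -2.33 with adjusted p = 0.0014 without MN-Ctrl replicate 2 and -0.25 without MN-Ctrl replicate 1. MN-Ctrl against MNB gave 0.86 (adjusted p = 0.313), 1.54 with adjusted p = 0.0169 without MN-Ctrl replicate 2 and -0.54 without MN-Ctrl replicate 1. Proliferation markers, 8 genes, summed to 26.8 to 49.4 CPM in MN-Exp, 498 to 541 CPM in MN-Ctrl, 38.3 to 63.3 CPM in NP and 154 to 203 CPM in MNB. All 8 fell in MN-Exp against MN-Ctrl, 8 of 8 rose in MN-Ctrl against NP and 3 of 8 fell in NP against MNB. Erythroid markers, 6 genes, summed to 22.1 to 25.9 CPM in MN-Exp, 11.4 to 116 CPM in MN-Ctrl, 47.3 to 49.6 CPM in NP and 35.6 to 42.2 CPM in MNB, with AHSP at 0 in NP. The part of either list in the TFRC results was not tested.

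**Figure D3:**
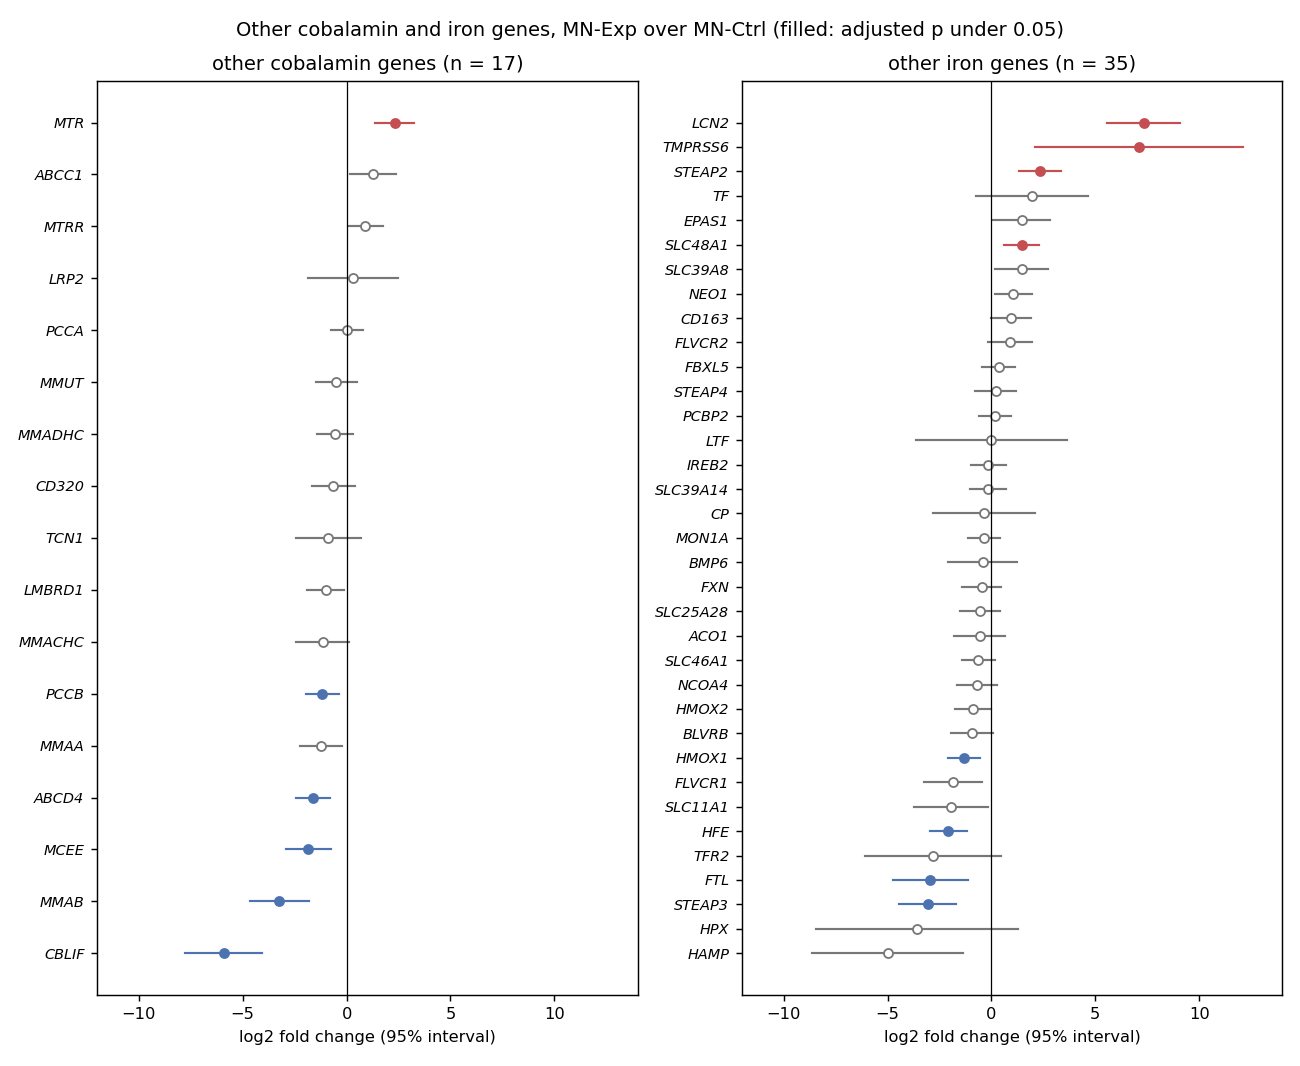
Log2 fold change of MN-Exp over MN-Ctrl, with its 95% interval, for 17 other cobalamin genes (left) and 35 other iron genes (right). Filled red points rose, filled blue points fell and open grey points did not pass (edgeR, adjusted p under 0.05); genes at 0 in a group, such as TMPRSS6, have a fitted value that depends on a prior count. CBLIF stands lowest among cobalamin genes, and LCN2 stands at 7.33 among iron genes. CBLIF, HAMP, HPX, LRP2 and TF are plotted although no test of them is given in the text, since each passed the filter through a single group.

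Of 42 other iron genes, 37 matched a gene in the files and 35 were tested. In MN-Exp against MN-Ctrl 4 rose and 4 fell, with a median log2 fold change of -0.36. These calls made up 22.9% of the list, near the 21.7% of all tested genes. FTL, STEAP3, HFE and HMOX1 were those that fell. FTL, the ferritin light chain, had 3939.5 and 3511 CPM in MN-Exp, 9343 and 48058 CPM in MN-Ctrl, 4060.5 and 3482 CPM in NP and 2243 and 3150.3 CPM in MNB. Both MN-Ctrl libraries were above all others, by very unequal amounts. FTL fell in MN-Exp against MN-Ctrl (-2.95, adjusted p = 0.0277). It was -1.32 without MN-Ctrl replicate 2 and -3.66 without MN-Ctrl replicate 1, and the call was lost without either MN-Exp library (up to adjusted p = 0.206). Ferritin genes have processed copies in mammalian genomes, so reads may be shared between loci and the FTL values are uncertain.

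STEAP3, an endosomal ferrireductase that acts with the transferrin receptor in mouse erythroid cells, stood at 6.63 ± 2.83 CPM in MN-Exp and 55.4 ± 47.4 CPM in MN-Ctrl (SD, n = 2 each) and fell (-3.06, adjusted p = 0.00652). HFE, the haemochromatosis protein that binds the transferrin receptor, stood at 22.1 ± 4.60 CPM in MN-Exp and 93.0 ± 30.9 CPM in MN-Ctrl and fell (-2.07, adjusted p = 0.00473, n = 2 each). HMOX1, haem oxygenase, which frees iron from haem, fell (-1.32, adjusted p = 0.025). SLC48A1, a haem transporter of endosomes and lysosomes, had 52.6 and 71.4 CPM in MN-Exp and 27.3 and 17.8 CPM in MN-Ctrl and rose (1.45, adjusted p = 0.0218). The calls of STEAP3 and HFE were lost without MN-Exp replicate 2 (adjusted p = 0.076 for STEAP3 and adjusted p = 0.0775 for HFE) and on library totals alone. Those of HMOX1 and SLC48A1 were lost without either MN-Exp library (up to adjusted p = 0.228 for HMOX1, which was also not called on library totals alone, and adjusted p = 0.174 for SLC48A1). STEAP3 was -1.69 without MN-Ctrl replicate 1 and -3.73 without MN-Ctrl replicate 2.

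LCN2, lipocalin 2, which binds bacterial iron chelators, had 2729 and 1812 CPM in MN-Exp, 7.39 and 21.0 CPM in MN-Ctrl, 1626 and 2632 CPM in NP and 2562 and 2976 CPM in MNB. It was low in MN-Ctrl alone, and it rose in MN-Exp against MN-Ctrl (7.33, adjusted p = 0.000188), with 8.27 without MN-Ctrl replicate 2. TMPRSS6, a protease that restrains hepcidin in liver, had 1.95 and 1.30 CPM in MN-Exp and 0 in both MN-Ctrl libraries. It was at least 7.86-fold higher in MN-Exp, taking 3 counts over the MN-Ctrl group as the floor (adjusted p = 0.0484, lost without any 1 library, up to adjusted p = 0.131). HAMP, hepcidin, the hormone that removes ferroportin from the membrane, had 1 count over the MN-Exp libraries, 24 over the MN-Ctrl libraries and 0 over the NP and MNB libraries. In MN-Ctrl it was at least 15.6-fold higher than in MNB and at least 12.7-fold higher than in NP. HAMP passed the filter on low counts through the MN-Ctrl libraries alone, so no test is given for it.

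STEAP2, STEAP3 and STEAP4, which encode membrane metalloreductases, each had a different highest group. STEAP2 had 49.5 and 36.6 CPM in MN-Exp, 11.6 and 5.05 CPM in MN-Ctrl, 6.002 and 4.89 CPM in NP and 6.53 and 6.04 CPM in MNB. STEAP4 had 12.2 and 8.43 CPM in MN-Exp, 11.5 and 6.17 CPM in MN-Ctrl, 14.04 and 23.05 CPM in NP and 56.1 and 42.5 CPM in MNB. MN-Exp thus stood above every other library for STEAP2 and MNB above every other library for STEAP4, while STEAP3 was highest in MN-Ctrl. STEAP2 rose in MN-Exp against MN-Ctrl (2.35, adjusted p = 0.0054), with 3.11 without MN-Ctrl replicate 1, and against NP (2.98, adjusted p = 0.00143). STEAP4 fell in MN-Ctrl against MNB (-2.46, adjusted p = 0.00422) and in NP against MNB (-1.41, adjusted p = 0.0432, lost without any 1 library, up to adjusted p = 0.257).

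In MN-Exp against MNB 0 of the 35 iron genes were called by edgeR and 4 had an unadjusted p under 0.05, STEAP2, STEAP4, FLVCR2 and SLC46A1. STEAP2 gave a log2 fold change of 2.77 ± 0.46 (adjusted p = 0.0676) and STEAP4 one of -2.26 ± 0.45 (adjusted p = 0.131). DESeq2 called both, STEAP2 with adjusted p = 8.48e-06 and STEAP4 with adjusted p = 0.001, and so did edgeR without the low-count filter and edgeR on the 2 groups alone or without either MN-Ctrl library. These genes of MN-Exp against MNB were chosen after their values were seen.

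**Figure D4:**
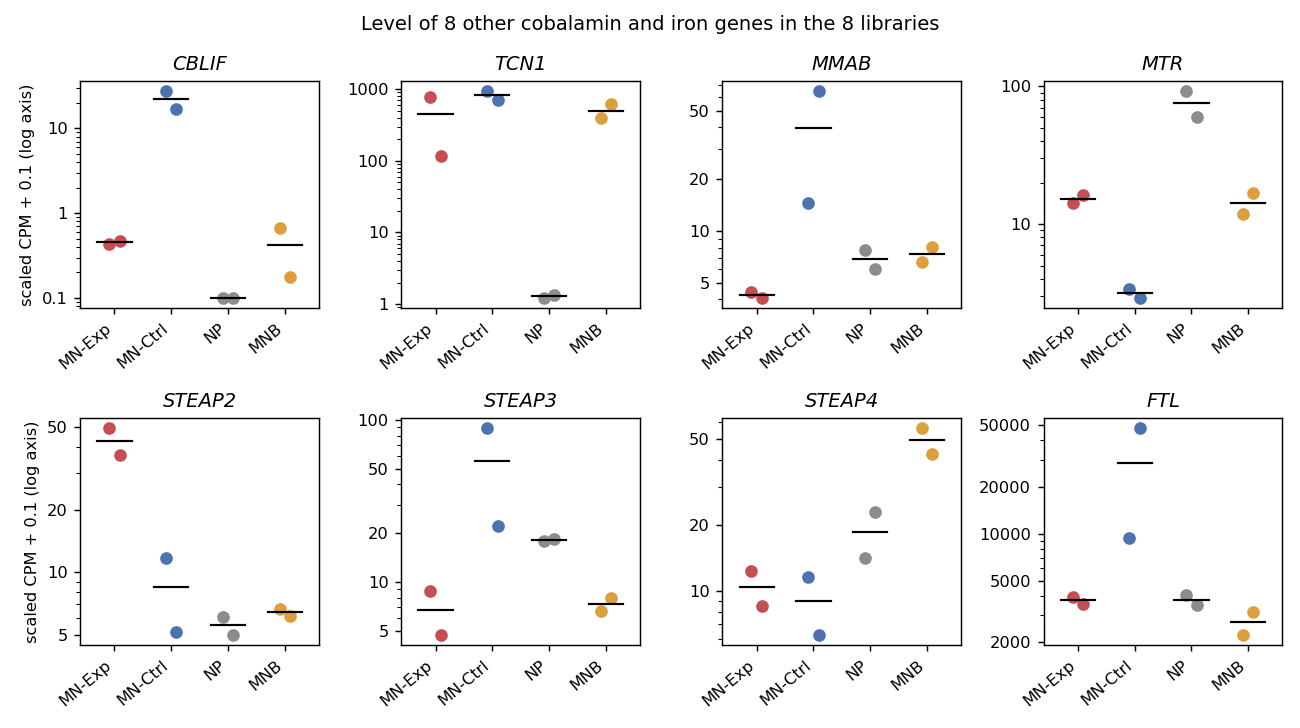
Scaled CPM plus 0.1 on a log axis for 8 of the other cobalamin and iron genes, picked for display after their values were seen. Points are the 2 libraries of MN-Exp, MN-Ctrl, NP and MNB, and bars are group means. STEAP2 stood highest in MN-Exp, STEAP3 and CBLIF in MN-Ctrl, MTR in NP and STEAP4 in MNB.

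TF and SLC39A8 stood higher in peritoneum than in the 3 mucosae, and MON1A lower. In MN-Exp against NP 4 of 35 rose and 6 fell, in MN-Ctrl against NP 10 rose and 9 fell, and in NP against MNB 3 rose and 2 fell. In MN-Ctrl against MNB 6 rose and 6 fell. In the order of these 4 comparisons, 28.6%, 54.3%, 14.3% and 34.3% of the list were called. These shares include TF in the comparisons with NP, HPX in MN-Exp against NP and HAMP in both comparisons of MN-Ctrl. Each of these genes passed the filter through a single group. The shares of all tested genes were 24.2%, 42.3%, 21.1% and 22.3%. TF, transferrin, the plasma iron carrier, had 0.254 and 0.370 CPM in MN-Exp, 0 and 0.187 CPM in MN-Ctrl, 16.7 and 14.95 CPM in NP and 0.0807 and 0.149 CPM in MNB. It was near 0 outside peritoneum, and in NP it was 135.5 times its level in MNB (counting interval 46.0 to 660.5). That interval covers counting error only, not the spread between libraries, and is not a test. TF passed the filter on low counts through the NP libraries alone, so no test is given for it. SLC39A8, a zinc, manganese and iron importer, had 38.1 and 17.0 CPM in MN-Exp, 9.90 and 10.3 CPM in MN-Ctrl, 78.5 and 254 CPM in NP and 21.1 and 22.1 CPM in MNB. It fell in MN-Exp against NP (-2.59, adjusted p = 0.00885, lost without MN-Exp replicate 2 or NP replicate 2, up to adjusted p = 0.0997), and without any 1 library the value was -3.25 to -1.48.

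NEO1, neogenin, a receptor for the hepcidin regulator hemojuvelin, stood at 20.9 ± 6.52 CPM in MN-Exp, 10.02 ± 3.06 CPM in MN-Ctrl, 74.5 ± 19.0 CPM in NP and 32.5 ± 0.535 CPM in MNB (SD, n = 2 each). It fell in MN-Exp against NP (-1.84, adjusted p = 0.00796, lost without MN-Exp replicate 1 or NP replicate 2, up to adjusted p = 0.106). CD163, the haemoglobin scavenger receptor of macrophages, which is also one of the macrophage markers, rose in NP against MNB (1.33, adjusted p = 0.0479, lost without any 1 library, up to adjusted p = 0.236). MON1A, a trafficking protein that brings ferroportin to the surface of mouse macrophages, was lowest in NP, where SLC40A1 was highest. It stood at 36.6 ± 6.14 CPM in MN-Exp, 46.9 ± 1.71 CPM in MN-Ctrl, 11.7 ± 2.85 CPM in NP and 39.1 ± 1.46 CPM in MNB (SD, n = 2 each), and it fell in NP against MNB (-1.74, adjusted p = 0.00677, lost without NP replicate 2, adjusted p = 0.0741). FLVCR1, a haem exporter, rose in MN-Ctrl against NP (2.72, adjusted p = 0.00819), with 1.06 and adjusted p = 0.0659 without MN-Ctrl replicate 1 and 3.49 without MN-Ctrl replicate 2, and the call was also lost without NP replicate 2 (adjusted p = 0.052). FLVCR2, of the same family, rose in MN-Exp against NP (1.88, adjusted p = 0.0217, lost without MN-Exp replicate 2 or either NP library, up to adjusted p = 0.148). FBXL5, an iron-sensing ubiquitin ligase subunit, also rose there (1.19, adjusted p = 0.0356, lost without any 1 library, up to adjusted p = 0.243). HPX, the haem carrier haemopexin, was at 0 in both MN-Exp libraries, at least 8.58-fold lower than in NP, which held 24 counts. HPX passed the filter through the NP libraries alone, so no test is given for it. The counts of called list genes still include HAMP, HPX, TF, CBLIF and LRP2 wherever their adjusted p was under 0.05.

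Across the 8 libraries, levels on the log2 CPM scale showed which members ran together, as a description over libraries that share groups and scaling. AMN and HEPH had a Pearson correlation of 0.92, HEPH and TFRC one of 0.91 and TCN2 and SLC40A1 one of 0.82. AMN and CYBRD1 ran opposite, at -0.94, as did SLC11A2 and SLC40A1, at -0.86. CUBN and AMN, the chains of 1 receptor, had 0.54. Among 9864 genes with a symbol and a mean of 5 CPM or more, the 3 most like AMN were CNDP2, HNF4A and ACP5, with correlations of 0.99 to 0.994. Those most like CUBN were SLC26A6, MYRFL and TNIK, each at 0.98, and those most like HEPH were BLOC1S6, XPNPEP2 and TMEM30A, at 0.983 to 0.986. For SLC40A1 they were KLF11, FGL2 and CD302, at 0.983 to 0.992, and for CYBRD1 LRRK2, TCTN1 and PAN3, at 0.991 to 0.992. MBOAT1, CTSC and TMEM164 were most like SLC11A2, at 0.983 to 0.988. HADHA, PRKCD and NNT were most like TFRC, at 0.964 to 0.979, and C15orf39, PDE3A and LRIG1 most like TCN2, at 0.966 to 0.974.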

How the data were processed

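Per the labels' protocols, complementary DNA was made with Smart-seq2 from total RNA and sequenced after TruSeq library preparation. The submitters' processing notes name Trim Galore, HISAT2, HTSeq 0.11.1 and the Sscrofa11.1 assembly; settings, strand use and annotation release are not given in the sources used here. The authors deposited raw counts per Ensembl gene, 1 file a sample. Symbols came from a table of gene IDs (15029 of 31907 genes).

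Counts were analysed with edgeR 4.0.16 in R 4.3.3: filterByExpr left 16549 genes, libraries were scaled by TMM, and all 4 groups entered 1 quasi-likelihood fit (4 residual degrees of freedom, biological coefficient of variation 0.38) with no replicate block. P-values were adjusted by Benjamini-Hochberg over all tested genes. Standard errors and 95% intervals were derived from the fold change and its F statistic. Correlations used log2 CPM with a prior count of 2. The script was tested on simulated data. Replicates of a group were not identical in any group.

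The members, lists and tests were chosen with earlier results of these data known. Named from the other lists were up to 4 called genes per direction, list and comparison with the largest fold changes, and the most abundant gene; not every call of a named gene is described. Gene lists had 59 other iron and cobalamin genes, 54 of them in the files, and markers of enterocytes, goblet cells, urothelium, mesothelium, macrophages, endothelium, fibroblasts, erythroid cells and dividing cells. Promoter motifs were not analysed here. Other settings tried were library totals, the size factors of DESeq2 1.42.0 and its own test, all genes with no filter, fits of 2 groups, a replicate block and leaving out single libraries. Settings for single genes of the other lists were chosen after seeing the data.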

Additional observations from a re-analysis of the deposited data

How the results depend on the processing

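Of 480 member fold changes under the alternatives, 413 kept direction and call, 33 lost the call, 30 gained it and 4 turned sign, none of these 4 called as reported: CUBN in MN-Exp over MNB gave 0.10 without MNB replicate 1 (-3.12 to 0.10 over the libraries left out), SLC40A1 in MN-Ctrl over MNB -0.24 on library totals alone, TFRC in MN-Ctrl over MNB -0.54 without MN-Ctrl replicate 1 (-0.54 to 1.54) and TCN2 in MN-Ctrl over NP 0.34 without MN-Ctrl replicate 2 (-1.27 to 0.34). DESeq2 called 7 members in MN-Exp over MN-Ctrl, against 4 as reported, and 27.9% of all tested genes, against 21.7%. Library totals alone called 2 members in MN-Exp over NP (4 as reported) and 3 in NP over MNB (5), and of the other iron and cobalamin genes 9 in MN-Exp over NP (14) and 11 in MN-Ctrl over MNB (17). The share of all tested genes called on library totals was 17.5% in MN-Exp over NP (24.2% as reported). It was 14.9% in NP over MNB (21.1%) and 24.7% in MN-Ctrl over MNB (22.3%). On the 2 groups alone the other genes gave 22 in MN-Exp over NP, 9 in MN-Ctrl over MNB, 18 in MN-Ctrl over NP (31) and 19 in NP over MNB (9). In the same order, 40.7%, 15.7%, 32.5% and 37.7% of all tested genes were called on the 2 groups alone. In MN-Exp over MNB 2 other genes were called without the low-count filter, on the 2 groups alone and by DESeq2, against 0. Of all tested genes these settings called 1.32%, 3.11% and 1.5%, against 0.0967%.

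With each library of the 2 groups compared left out in turn, members called ranged from 3 to 6 in MN-Exp over MN-Ctrl, 2 to 3 in MN-Exp over NP, 2 to 6 in MN-Ctrl over MNB, 6 to 7 in MN-Ctrl over NP and 2 to 3 in NP over MNB, and stayed at 0 in MN-Exp over MNB. The other genes ranged from 4 to 23, 6 to 9, 4 to 21, 17 to 30 and 4 to 7 in the same order, with 0 in MN-Exp over MNB, where leaving out a library of MN-Ctrl, outside that comparison, called 2 (STEAP2 and STEAP4). A lone library was assumed to vary like the other groups. Over all genes, leaving out 1 library of the groups compared gave 1396 to 6358 calls in MN-Exp over MN-Ctrl (3584 as reported), 1762 to 2394 in MN-Exp over NP (3998), 1442 to 6485 in MN-Ctrl over MNB (3686), 1343 to 1989 in NP over MNB (3486) and 3 to 7 in MN-Exp over MNB (16, and 249 by DESeq2, 352 with no filter, 453 on the 2 groups alone and 5 on library totals). The 2 groups alone gave 2340 calls in MN-Exp over MN-Ctrl, 6215 in MN-Exp over NP, 2294 in MN-Ctrl over MNB and 5804 in NP over MNB. On library totals 18.7% of the calls of MN-Ctrl over MNB were higher, against 50.4% as reported, and 24.9% of those of MN-Ctrl over NP, against 51.2%. The cause of these changes was not tested.

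Same-numbered libraries of different groups did not deviate together (correlations from -0.08 to 0.091), so the numbers were not taken to pair samples. With a replicate block, CYBRD1 in MN-Ctrl over MNB (adjusted p = 0.0528) and TFRC in NP over MNB (adjusted p = 0.0584) were the member calls that changed, which left 3 and 4 members called. Levels near the floor, CUBN outside MN-Ctrl and AMN and HEPH in NP, are limited by counting error.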
